A study of Mus musculus with 8 samples.

Results

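Tbx21, Eomes, Tcf7, Lef1, Zeb2, Id2, Id3, Prdm1, Gata3 and Bach2, 10 genes for transcription regulators of lymphocyte lineage and memory, were taken by their symbols from a table of RNA-seq counts for 54232 gene IDs, and each of the 10 was found. The counts came from splenic NK cells and splenic CD8+ T cells, FACS-purified from Tyk2-/- mice of 8 to 12 weeks on the C57BL/6 strain (C57BL/6N in the study's methods), kept without treatment (homeostatic). TYK2, a JAK family kinase that signals from the receptors of type I interferon and IL-12, was missing in both groups through a germline knockout that affects all cells of the mouse. The study's methods name 2 knockout strains, of which 1 carries a CMV-cre transgene, and the labels do not say which was used. Each cell type had 3 libraries, made from spleens of 3 pooled littermates each and numbered here as libraries 1 to 3. The series also labels 2 WT CD8+ T cell samples, which were not analysed here. How the loss of TYK2 changes these genes was therefore not tested. The comparison asks how the regulators differ between untreated splenic NK cells and CD8+ T cells that both lack TYK2. The study describes its splenic cells as naive, and by flow cytometry it found naive, central memory and effector memory subsets of splenic CD8+ T cells. For Tyk2-/- NK cells it describes impaired maturation, with lower RNA of most marker and effector genes than in WT. It also found raised CXCR3 protein on them, which it links to immature NK cells. Cell type and state of differentiation cannot be told apart in this comparison.

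NK cells and CD8+ T cells use an overlapping set of these regulators. The T-box factors T-bet (Tbx21) and Eomes drive the cytotoxic and interferon-gamma programme of both cell types, and ZEB2 and Blimp-1 (Prdm1) act with T-bet in terminal maturation. TCF-1 (Tcf7) and LEF-1 (Lef1) are DNA-binding partners of beta-catenin that keep T cells naive or memory-like, BACH2 restrains effector differentiation, and GATA3 serves T cell development and innate lymphoid cells. ID2 and ID3 carry no DNA-binding domain and hold E proteins away from DNA, ID2 being needed for NK cells and effector T cells and ID3 being linked to naive and memory T cells.

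Total counts on genes ranged from 20957384 to 26144478 in CD8+ T cell libraries and from 32848432 to 38573550 in NK cell libraries, and the common biological coefficient of variation, edgeR's estimate of the spread between replicates, was 1.4 among CD8+ T cell and 0.847 among NK cell libraries. Tyk2 itself still had 105, 919 and 554 reads in CD8+ T cells against 3864, 4245 and 3207 in NK cells, and as counts are per gene they do not check the deletion. The cell type labels were checked against marker genes. Of 6 NK cell markers 5 were called higher in NK cells, with Ncr1 (the receptor NKp46) at 0 in each CD8+ T cell library and at 137008, 195219 and 171612 reads in NK cells, while Klrd1 (log2 fold change 1.82, edgeR adjusted p = 0.077) was not called. Of 6 CD8 T cell markers 5 were called higher in CD8+ T cells, with Cd8b1 at 0 in each NK cell library, while Cd3e (log2 fold change -1.65, edgeR adjusted p = 0.12) was not called. Ncr1, Klre1 and Klra8 passed the filter on low counts, given below, only through the NK cell libraries. Cd8a, Cd8b1 and Cd5 passed it only through the CD8+ T cell libraries. Klrb1c (NK1.1) and Cd8a encode proteins by which the cells were sorted. The calls of all these genes are therefore a limited check of the labels. Summed over 5 B cell markers the normalised counts were 7261, 4756 and 943 in CD8+ T cell libraries 1, 2 and 3 and 260, 1545 and 12.6 in the NK cell libraries. For 6 myeloid markers the summed normalised counts ranged from 2.45 to 142 over the CD8+ T cell libraries and from 250 to 859 over the NK cell libraries, with Adgre1 and Cd14 at 0 throughout, and those of 7 erythroid and platelet markers did not exceed 212 in any library. Among markers of ILC1, CD4 and gamma delta T cells, Trdc was higher in NK cells (1350, 3027 and 2619 reads against 0, 2 and 1) and Cxcr6 was higher in CD8+ T cells (11862, 6875 and 5095 reads against 93, 73 and 275). Itga1 had 74, 223 and 51 reads in NK cells against 0 in each CD8+ T cell library. Cd4 had 37, 26 and 12 reads in NK cells against 0, 2 and 0, and Cd200r1 had 98, 186 and 50 against 418, 1 and 0. Itga1, Cd4 and Cd200r1 were not called. Trdc, Itga1 and Cd4 passed the filter only through the NK cell libraries.

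Unless called reads, values below are counts normalised with edgeR's TMM factors to the mean effective size of the 6 libraries, log2 fold changes are NK cells over CD8+ T cells with their standard error (SE), and adjusted p-values are from edgeR's quasi-likelihood test over 14062 genes. A gene was called at an adjusted p below 0.05. Of the 10 factors 8 were called, 5 of them higher in NK cells (Tbx21, Eomes, Zeb2, Id2, Prdm1) and 3 higher in CD8+ T cells (Tcf7, Lef1, Id3), whereas Gata3 and Bach2 were not called. All 10 passed the filter on low counts (a mean of at least 10 normalised counts over the 6 libraries), but Tbx21, Zeb2 and Prdm1, with means of 4.50, 5.30 and 0 in CD8+ T cells, passed it only through the NK cell libraries. Among all genes tested 11.4% were called, 6.24% as higher in NK cells and 5.14% as higher in CD8+ T cells. For each of the 10 factors the NK cell values lay entirely on 1 side of the CD8+ T cell values, 6 being above and 4 below them. Over all genes such separation held for 41.6%, with 25.5% above and 16.1% below. The median absolute log2 fold change was 3.42 over the 10 factors and 1.42 over all genes tested. In such bulk samples, fewer cells that express a gene and less RNA of it per cell cannot be told apart.

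**Figure D1:**
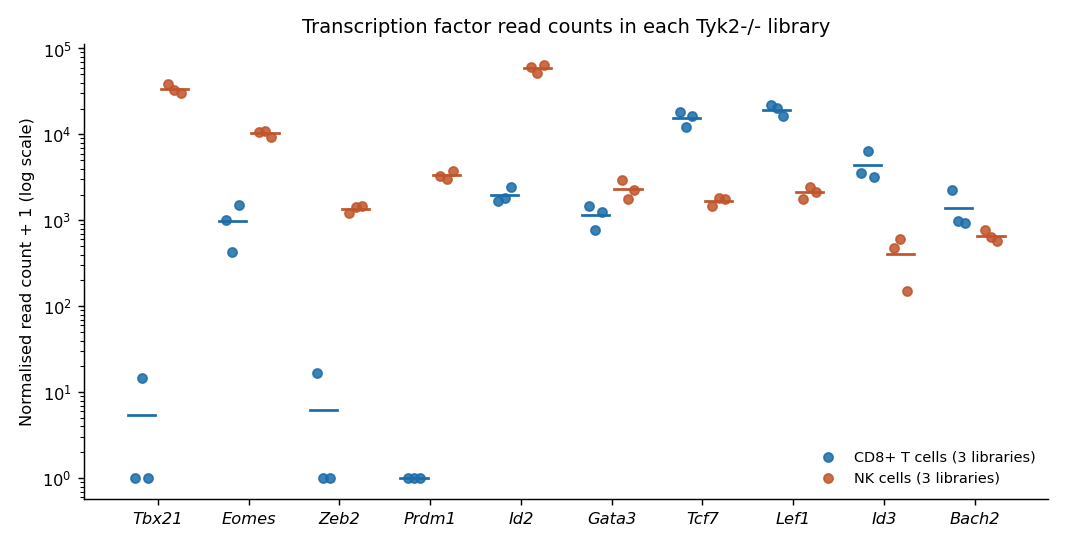
Normalised read count + 1 on a log axis for each of the 10 factors, with 1 point for each of the 3 CD8+ T cell and 3 NK cell libraries and a bar at the group mean. Tbx21, Zeb2 and Prdm1 lie at or near 0 in CD8+ T cells and at 1225 or more in each NK cell library, while Gata3 and Bach2 differ the least.

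**Figure D2:**
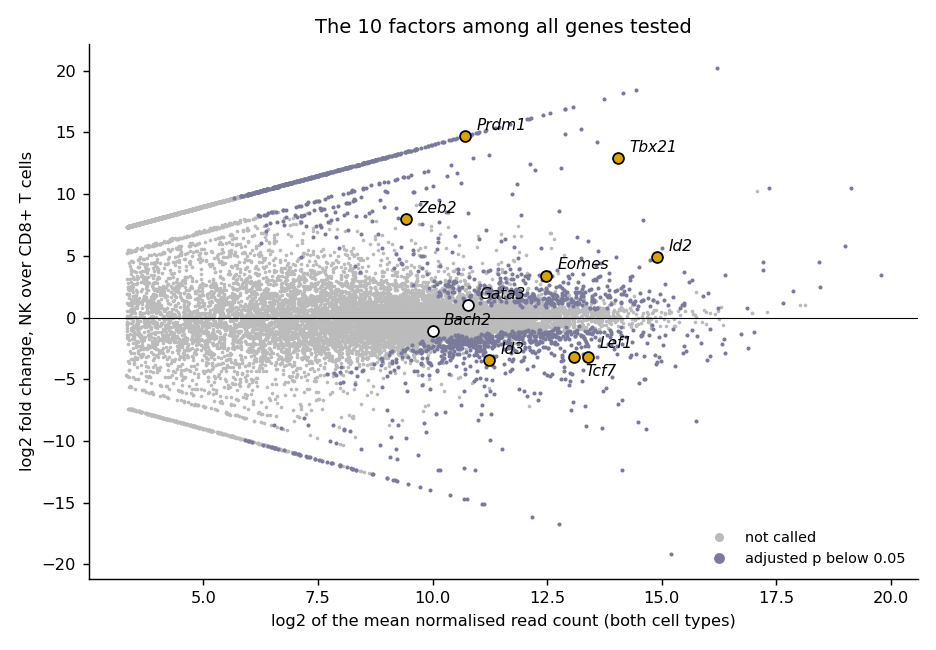
Log2 fold change, NK cells relative to CD8+ T cells, against the log2 mean normalised read count for the 14062 genes tested, with called genes in the darker shade and the 10 factors as circles, filled where called. The 8 called factors lie above 3 or below -3 on the log2 axis, and the open circles of Gata3 and Bach2 lie near 1 and -1.

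Both T-box factors were higher in NK cells. Tbx21 (ENSMUSG00000001444, minus strand of chromosome 11 of GRCm38, 97098071 to 97115331) had 39116, 32463 and 30014 normalised counts in NK cell libraries 1 to 3 and 0, 13.5 and 0 in CD8+ T cell libraries 1 to 3. The CD8+ T cell value thus consisted of 11 reads in library 2, and a value of 3 reads or fewer per library was taken as not detectable. Its log2 fold change was 12.91 (SE 1.27, edgeR adjusted p = 0.0022), and its size depends on those few reads. Without CD8+ T cell library 2 the fitted value became 18.11, a number set by the fit since both other libraries were at 0.

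Eomes (ENSMUSG00000032446, plus strand of chromosome 9, 118478212 to 118486132) had 10768, 11089 and 9358 normalised counts in NK cells and 1009, 429 and 1503 in CD8+ T cells. It was therefore detected in each library of both cell types, 10.6-fold higher in NK cells (log2 fold change 3.41, SE 0.48, edgeR adjusted p = 0.0081). Eomes varied more within CD8+ T cells, where the highest library was 3.50 times the lowest, than in NK cells, where this ratio was 1.19. Genes with a mean of at least 500 normalised counts also varied more there, with a median coefficient of variation of 44.3% against 19.4% in NK cells. Compared per kilobase of exon, Tbx21 was 5.39, 4.34 and 4.76 times the level of Eomes in the NK cell libraries. In CD8+ T cells the order was the opposite, with a Tbx21 to Eomes ratio of 0, 0.0466 and 0.

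Zeb2 and Prdm1, which encode repressors that act in terminal effector maturation, were likewise close to absent from CD8+ T cells. Prdm1 (ENSMUSG00000038151, minus strand of chromosome 10, 44437177 to 44528501) had 3254, 3038 and 3717 normalised counts in NK cells and not a single read in any CD8+ T cell library. Taking 3 reads in each library as the limit, it was at least 976-fold higher in NK cells (edgeR adjusted p = 0.00092). This bound covers counting error only and leaves out the spread between libraries. Zeb2 (ENSMUSG00000026872, minus strand of chromosome 2, 44983632 to 45117395) had 1225, 1423 and 1463 normalised counts in NK cells against 15.9, 0 and 0 in CD8+ T cells. All of its 13 CD8+ T cell reads lay in library 1, whereas the 11 reads of Tbx21 lay in library 2. Its log2 fold change of 8.00 (SE 1.89) had an edgeR adjusted p of 0.044. This was the highest adjusted p of the 8 calls, and it rose to 0.053 without CD8+ T cell library 2 and to 0.15, 0.14 and 0.15 without NK cell library 1, 2 or 3. Zeb1, its paralogue, was present in both cell types, with 2146, 1586 and 1688 reads in CD8+ T cells against 1044, 688 and 799 in NK cells (log2 fold change -1.42, edgeR adjusted p = 0.065). Per kilobase the Zeb2 level was 0.611, 1.25 and 1.03 times that of Zeb1 in NK cells and at most 0.00307 times in CD8+ T cells.

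The pair of HMG-box factors was higher in CD8+ T cells by nearly the same amount. Tcf7 (ENSMUSG00000000782, minus strand of chromosome 11, 52252371 to 52283014) had 18237, 12303 and 16258 normalised counts in CD8+ T cells against 1477, 1836 and 1789 in NK cells, a 9.17-fold difference (log2 fold change -3.20, SE 0.23, edgeR adjusted p = 0.00074). Lef1 (ENSMUSG00000027985, plus strand of chromosome 3, 131110471 to 131224356) had 21727, 20142 and 16250 normalised counts in CD8+ T cells against 1752, 2427 and 2162 in NK cells, also 9.17-fold (log2 fold change -3.20, SE 0.22, edgeR adjusted p = 0.00066). Thus both were well above the detection limit in each NK cell library. Their ratio per kilobase, Tcf7 over Lef1, was 1.12, 0.816 and 1.34 in CD8+ T cells against 1.13, 1.01 and 1.11 in NK cells, so that these ranges overlapped although each gene alone did not. The predicted gene Gm43352 on the opposite strand shares 34.5% of the exon bases of Lef1, and reads from these bases cannot be told apart by strand in this library type. Gm43352 had between 47 and 166 reads in each of the 6 libraries. The study does not say how reads on bases shared by different genes were counted. The length used for Lef1 includes these bases, so its level per kilobase, and the ratios, ranks and shares that use it, may be too low. This was not tested.

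The genes of the ID proteins differed in opposite directions. Id2 (ENSMUSG00000020644, minus strand of chromosome 12, 25093799 to 25097140) had 61126, 51547 and 64844 normalised counts in NK cells and 1680, 1836 and 2437 in CD8+ T cells. This 29.8-fold difference (log2 fold change 4.90, SE 0.23) had the lowest edgeR adjusted p of the 10 factors, at 0.00023. Id3 (ENSMUSG00000007872, plus strand of chromosome 4, 136143497 to 136145755) went the other way, with 3602, 6455 and 3219 normalised counts in CD8+ T cells against 474, 604 and 151 in NK cells, which is 10.8-fold higher in CD8+ T cells (log2 fold change -3.43, SE 0.61, edgeR adjusted p = 0.019). NK cell library 3 was the low one for Id3, 4.00 times below the highest NK cell library, and the call was lost without NK cell library 1 (adjusted p = 0.09) or library 2 (adjusted p = 0.058). The ratio of Id2 to Id3 per kilobase was 0.244, 0.149 and 0.397 in CD8+ T cells against 67.6, 44.7 and 225 in NK cells. The relative Id1 was not detectable, with at most 3 reads in any library. E proteins, the targets that ID proteins bind, did not pass the test: the log2 fold change was 0.57 for Tcf3 (edgeR adjusted p = 0.61), -1.12 for Tcf12 (adjusted p = 0.24) and 1.54 for Tcf4 (adjusted p = 0.68).

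Gata3 and Bach2 differed by about a factor of 2.01 and 2.10 between the group means, and neither passed the test. Gata3 (ENSMUSG00000015619, minus strand of chromosome 2, 9857078 to 9890034) had 2960, 1781 and 2276 normalised counts in NK cells and 1451, 775 and 1262 in CD8+ T cells (log2 fold change 1.01, SE 0.38, edgeR adjusted p = 0.13). Although its lowest NK cell library was above its highest CD8+ T cell library, the margin was small. DESeq2 gave a log2 fold change of 1.07 and an adjusted p of 0.047 for Gata3, so that it called 9 of the 10 factors, beside 26.8% of all genes it tested.

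Bach2 (ENSMUSG00000040270, plus strand of chromosome 4, 32238804 to 32586108) had 2259, 981 and 924 normalised counts in CD8+ T cells against 771, 643 and 572 in NK cells (log2 fold change -1.07, SE 0.51, edgeR adjusted p = 0.21). CD8+ T cell library 1 was the high one, and leaving it out reduced the log2 fold change to -0.52 (edgeR adjusted p = 0.43). The same library had the highest summed level of the B cell markers given above. Of these Cd79b, which made up most of the sum, had 4691, 3853 and 972 reads in CD8+ T cell libraries 1, 2 and 3 and so was also high in library 2, where Bach2 was not. Library 1 had 405 reads of Ms4a1 and 492 of Ebf1 against at most 6 and 2 in the other CD8+ T cell libraries, while Pax5 was at 0 in it. The part of these reads in the Bach2 level was not tested.

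Ordered by the normalised count per kilobase of exon, CD8+ T cells were led by Tcf7 (5943 ± 1150, SD, n = 3), Lef1 (5526 ± 804) and Id3 (3462 ± 1380), whose neighbouring library ranges overlapped. Id2 followed at 814 ± 164, apart from its neighbours on both sides. Gata3 (362 ± 108), Eomes (266 ± 146) and Bach2 (156 ± 84.9) came next, each overlapping with the next, and Tbx21, Zeb2 and Prdm1 were at 1.81, 0.463 and 0. In NK cells the order began with Id2 (24270 ± 2810, SD, n = 3), Tbx21 (13610 ± 1890) and Eomes (2818 ± 249), each apart from the next. Gata3 (728 ± 184), Tcf7 (648 ± 74.3), Prdm1 (622 ± 64.7) and Lef1 (603 ± 97.0) formed a group in which neighbours overlapped. They were followed by Id3 (321 ± 182) and Zeb2 (120 ± 11.1), which overlapped, and by Bach2 (74.5 ± 11.3). The factor that ranked lowest in NK cells was thus Bach2, and it was still detected in each library.

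Expressed as shares of the summed level per kilobase of the 10 factors, Tcf7, Lef1 and Id3 filled most of each CD8+ T cell library. Tcf7 took 28.1 to 40.6%, Lef1 30.4 to 35.1% and Id3 16.0 to 30.2%. In NK cells Id2 took 52.4 to 60.2%, Tbx21 27.3 to 33.5% and Eomes 5.73 to 7.44%. CD8+ T cell library 2 stood apart from the other CD8+ T cell libraries by its low share of Tcf7 and high share of Id3.

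**Figure D3:**
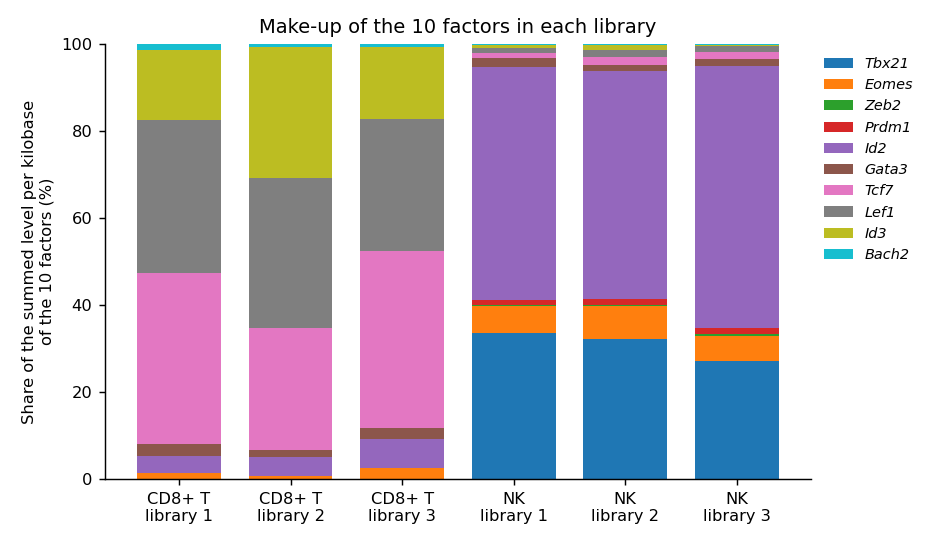
Stacked bars of the share, in percent, that each factor takes of the summed level per kilobase of the 10 factors, with 1 bar for each library. Tcf7, Lef1 and Id3 make up most of the 3 CD8+ T cell bars and Id2 and Tbx21 most of the 3 NK cell bars, with a larger Id3 share of 30.2% in CD8+ T cell library 2.

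The spread of the factors between libraries was set beside that of all genes above a minimum level, with no further matching of levels. In CD8+ T cells 7 of the 10 factors had a mean normalised count of at least 500, and the median of their coefficients of variation was 30.0%, compared with 44.3% over all 6088 genes above this level. In NK cells it was 11.6% for 9 factors and 19.4% for 5988 genes. Below the median of all such genes lay 5 of the 7 factors in CD8+ T cells and 8 of the 9 in NK cells. Eomes and Bach2 in CD8+ T cells, with 54.8% and 54.4%, and Gata3 and Lef1 in NK cells, with 25.3% and 16.1%, varied most among the factors above this level in each cell type. Id3, with a mean of 410 normalised counts in NK cells, lay below this level and had a coefficient of variation of 56.9% there.

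Promoter windows of the 10 genes, spanning 250 bases before to 50 after each start site in RefSeq on GRCm38.p6, were searched for the motifs of these factor families and of interferon signalling. The 10 genes had 17 windows among 32851 in the table. Both strands were searched for CTTTGA as the TCF/LEF motif and GTGTGA as the core site of T-box factors. The E-box of E proteins and ZEB factors was CACCTG, and TGTGGT stood for RUNX factors. For the GATA family the letters searched were GATAA. AP-1 and BACH factors were represented by TGANTCA and the STAT element GAS by TTCNNNGAA. The ISRE, bound by interferon-activated complexes, was searched by its core of a repeated GAAA block with any 2 bases between the copies. The windows of Tbx21, Eomes, Prdm1 and Bach2 are given because these members range from nearly silent to similar in level between the cell types and each window has a match to at least 1 motif. They lie at chr11:97115282-97115581 (minus strand, Tbx21), chr9:118477939-118478238 (plus strand, Eomes), chr10:44458699-44458998 (minus strand, Prdm1) and chr4:32417185-32417484 (plus strand, Bach2). Capitals mark the motif matches, none of which overlap each other.
Tbx21: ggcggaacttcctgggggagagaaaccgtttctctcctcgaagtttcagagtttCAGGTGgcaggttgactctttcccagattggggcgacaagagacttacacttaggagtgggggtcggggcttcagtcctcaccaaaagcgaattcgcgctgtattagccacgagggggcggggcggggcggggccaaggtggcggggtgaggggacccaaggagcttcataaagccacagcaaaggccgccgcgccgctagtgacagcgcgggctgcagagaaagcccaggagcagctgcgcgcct
Eomes: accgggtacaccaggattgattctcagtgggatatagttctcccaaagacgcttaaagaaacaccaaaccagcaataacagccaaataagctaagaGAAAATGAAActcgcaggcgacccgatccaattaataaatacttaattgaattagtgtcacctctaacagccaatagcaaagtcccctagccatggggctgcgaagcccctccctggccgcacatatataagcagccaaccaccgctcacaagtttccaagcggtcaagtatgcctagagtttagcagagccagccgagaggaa
Prdm1: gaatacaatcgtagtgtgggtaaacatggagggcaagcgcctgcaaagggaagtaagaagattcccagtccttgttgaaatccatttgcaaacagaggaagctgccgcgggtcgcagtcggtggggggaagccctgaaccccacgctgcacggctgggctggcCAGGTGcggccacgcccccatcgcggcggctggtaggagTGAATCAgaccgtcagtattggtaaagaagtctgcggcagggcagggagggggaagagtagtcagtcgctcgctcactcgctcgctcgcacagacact
Bach2: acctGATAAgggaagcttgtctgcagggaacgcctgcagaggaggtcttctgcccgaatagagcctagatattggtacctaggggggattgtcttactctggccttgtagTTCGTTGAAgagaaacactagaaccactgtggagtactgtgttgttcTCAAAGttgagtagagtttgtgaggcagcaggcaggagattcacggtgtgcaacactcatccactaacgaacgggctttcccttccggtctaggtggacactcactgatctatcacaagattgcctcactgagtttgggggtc

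The Tbx21 window holds an E-box, read on the strand opposite to the gene, 196 bases before the start. In Prdm1 an E-box lies 87 bases and an AP-1 and BACH match, TGAATCA, 48 bases before the start. Eomes has the ISRE match GAAAATGAAA 154 bases before its start. This RefSeq start lies 23 bases before the 5′ end of the gene in GENCODE M21, so that only the last 27 bases of the window fall in the gene there, and these begin a GENCODE transcript. The starts used for Prdm1 and Bach2 lie inside the GENCODE gene, 69753 and 178631 bases from its 5′ end, and that of Tbx21 is at the end itself. The Bach2 window holds a GATA match 246, a GAS match 140 and a TCF/LEF match 93 bases before the start. Over all 17 windows the E-box was found in 4 (20.2% of all windows in the table hold it), GATAA in 6 (25.4%), CTTTGA in 2 (16.0%), TGANTCA in 2 (7.81%), TTCNNNGAA in 3 (8.3%) and the ISRE core in 1 (3.44%). GTGTGA and TGTGGT, present in 14.5% and 16.8% of all windows, were in none of the 17. Several windows of a gene overlap or lie close together, so these counts are not independent, and a match of letters describes the sequence only.

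The genes that these factors act with were compared in the same fit. Of 17 partners and relatives (E proteins, TCF, TLE, MAF, BACH, ZEB and GATA family members) 14 passed the filter and 0 were called by edgeR, to be read against the 11.4% of all genes. An unadjusted edgeR p below 0.05 was found for 1 gene that was higher in NK cells (Tle3, a corepressor of TCF-1 and LEF-1) and for another that was lower there (Zeb1). DESeq2, which called 26.8% of all genes it tested, called both in these directions and also Tle1 as higher in CD8+ T cells (log2 fold change -3.95, DESeq2 adjusted p = 0.033). Leaving out CD8+ T cell library 3, which held 849 reads of Tcf4 against 2 and 0 in the other two, gave an edgeR call for Tcf4 as higher in NK cells (log2 fold change 9.22, adjusted p = 0.015). The median log2 fold change of the 14 was -0.66, beside 0.10 over all genes. Id1 and Gata2 were at 3 reads or fewer in each CD8+ T cell library, and Id1 and Gata1 in each NK cell library. Of the 3 GATA factors examined, Gata3 alone had more than 100 reads in any library.

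Of 26 other transcription factors of lymphocytes 25 passed the filter and 4 were called, a share to be read against the 11.4% of all genes. Bcl6, a repressor opposed to Prdm1 in B and T cells, was higher in NK cells, with 1261, 1586 and 1102 reads against 49, 45 and 21 (log2 fold change 4.71, edgeR adjusted p = 0.011). Higher in CD8+ T cells were Bcl11b, which fixes T cell identity (log2 fold change -4.94, edgeR adjusted p = 0.049), Foxo1, a factor of quiescent T cells (-1.85, adjusted p = 0.036), and the chromatin organiser Satb1 (-1.76, adjusted p = 0.017). Bcl11b had 3076, 3639 and 5260 reads in CD8+ T cells against 82, 11 and 383 in NK cells. Bcl11b was not called with RLE normalisation (edgeR adjusted p = 0.051). The 4 calls also depended on single libraries. Without NK cell library 1 none of them was kept (edgeR, 6 genes of the list at an unadjusted p below 0.05), and without NK cell library 2 or 3 Bcl11b alone was (adjusted p = 0.049 and 0.046). Bcl11b in turn had an adjusted p of 0.074 to 0.076 with any single CD8+ T cell library left out, Foxo1 had 0.062 and 0.066 without CD8+ T cell library 1 or 2, and the calls became 5 without CD8+ T cell library 1 or 2. Tox2, Irf4 and Zbtb7b were at 3 reads or fewer in each CD8+ T cell library. Of these, Zbtb7b, the factor of CD4 T cell fate, had 623, 9 and 208 reads in NK cells (edgeR adjusted p = 0.063), Irf4 had 154, 2 and 11 (adjusted p = 0.13) and Tox2 had 6, 40 and 0, below the filter. The median log2 fold change of the 25 genes was 0.34.

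Among 10 genes of resting and memory T cells, several of which are described as targets of TCF-1, LEF-1 or FOXO1, 6 were called higher in CD8+ T cells and 1, S1pr1, in NK cells. Over all genes tested the shares called in these directions were 5.14% and 6.24%. The list was chosen with earlier results of these data known. The chemokine receptor Ccr7 had 48764, 31028 and 59761 reads in CD8+ T cells against 175, 37 and 113 in NK cells (log2 fold change -9.01, edgeR adjusted p = 0.0012). Il6ra, the IL-6 receptor, was at 0 in each NK cell library and at least 1265-fold higher in CD8+ T cells (adjusted p = 0.0012), and it passed the filter only through the latter. As for Prdm1, this bound leaves out the spread between libraries. The gut-homing receptor Ccr9 (-6.31, edgeR adjusted p = 0.012) and Slamf6 (-1.97, adjusted p = 0.013) also were higher in CD8+ T cells by log2 fold change. S1pr1, the receptor for exit from lymphoid organs, was the exception with a log2 fold change of 1.67 (edgeR adjusted p = 0.0074). The median of the list was -1.45. Without NK cell library 1 its 7 calls became 4, as Ccr9 (edgeR adjusted p = 0.072), Slamf6 (0.079) and Cd27 (0.11) were lost. Slamf6 was also lost without NK cell library 3 (0.075), and Cd27 without NK cell library 2 (0.092) or 3 (0.12).

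Of 12 effector genes, described as targets of T-box factors or expressed with them, 7 were called higher in NK cells and 0 in CD8+ T cells. Among all genes tested 6.24% and 5.14% were called in these directions. An unadjusted edgeR p below 0.05 and DESeq2 also gave 0 of the 12 as higher in CD8+ T cells. This list, too, was chosen with earlier results of these data known. S1pr5, Fasl, Itgam and Gzmb had a mean below 10 in CD8+ T cells and passed the filter only through the NK cell libraries. For all 12 the NK cell libraries lay above the CD8+ T cell libraries, beside 25.5% of all genes. The median log2 fold change of the 12 was 6.22, beside 0.10 over all genes. S1pr5 and Fasl had no read in CD8+ T cells and were at least 12973-fold and at least 1211-fold higher in NK cells (edgeR adjusted p = 0.00017 and 0.00076). These bounds, too, leave out the spread between libraries. Gzma (granzyme A) had 1029216, 1282789 and 1487452 reads in NK cells and 1412, 568 and 0 in CD8+ T cells (log2 fold change 10.46, edgeR adjusted p = 0.031), and Itgam (CD11b) had 477, 367 and 344 reads against 1, 0 and 0 (9.45, adjusted p = 0.021). The chemokine Ccl5, Il2rb (the shared beta chain of the IL-2 and IL-15 receptors) and Prf1 (perforin) were also among the 7. Gzma was called neither without CD8+ T cell library 1 or 2 (edgeR adjusted p = 0.052 and 0.07) nor without NK cell library 1, 2 or 3 (0.097, 0.092 and 0.098), and Itgam was not called without NK cell library 1, 2 or 3 (0.11, 0.092 and 0.096).

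**Figure D4:**
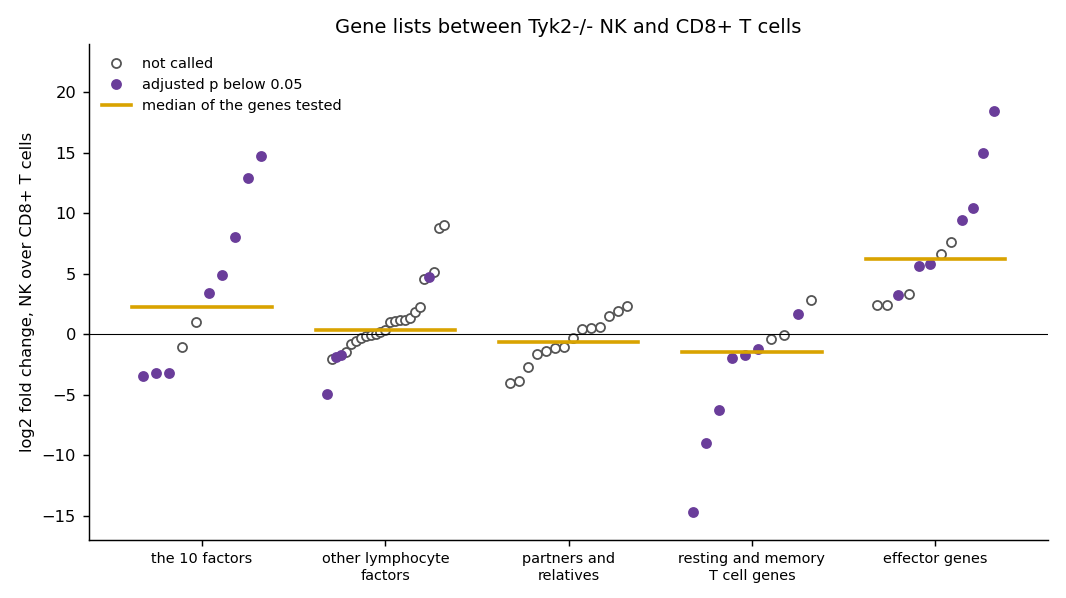
Log2 fold change, NK cells relative to CD8+ T cells, for the tested genes of the 10 factors and of 4 further gene lists, sorted within each list, with filled points for genes called at an adjusted p below 0.05 and a bar at the list's median. The effector genes lie above 0 throughout, while resting and memory T cell genes lie mostly below it and the partners on both sides.

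For each factor the gene with the most similar profile was sought among the 14061 other genes tested, by the root mean square difference over the 6 libraries of log2(normalised count + 1) after centring each gene on its mean. The most similar profiles were those of Prr5l for Prdm1 (difference 0.115), Cnot10 for Bach2 (0.122), Eif4a2 for Lef1 (0.124), Atp6v0b for Gata3 (0.125), Snrnp70 for Eomes (0.132) and Tubb5 for Tcf7 (0.164). Prr5l, like Prdm1, was at 0 in each CD8+ T cell library, so that their likeness rests on shared zeros and on the NK cell libraries. Id2 was nearest to Lgmn (0.217), which had 0 reads in CD8+ T cells against 25, 34 and 38 in NK cells, so that this likeness rests on low counts. The nearest profile to Zeb2 was Gzmb (0.28), whose CD8+ T cell reads lay in the same library as those of Zeb2. That library held 21 reads of Gzmb and 13 of Zeb2, so that this likeness rests in part on low counts. Id3 was nearest to Gm7785 (0.332), with 12, 42 and 13 reads in CD8+ T cells against at most 3 in NK cells. Tbx21 had no close match, its nearest gene being Klra8 (0.922). This gene belongs to a multigene family, and reads that align to several places were left out of the counts. Each difference describes 6 libraries of 2 cell types and was not tested.

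The direction of the fold change stayed the same for each of the 10 factors under the 10 alternatives tried, which were 2 other normalisations, DESeq2, no filter on low counts and the omission of each library in turn. Of these 100 values 93 kept their side of the threshold, 6 lost the call (4 for Zeb2 and 2 for Id3) and 1 gained it (Gata3 with DESeq2).

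**Figure D5:**
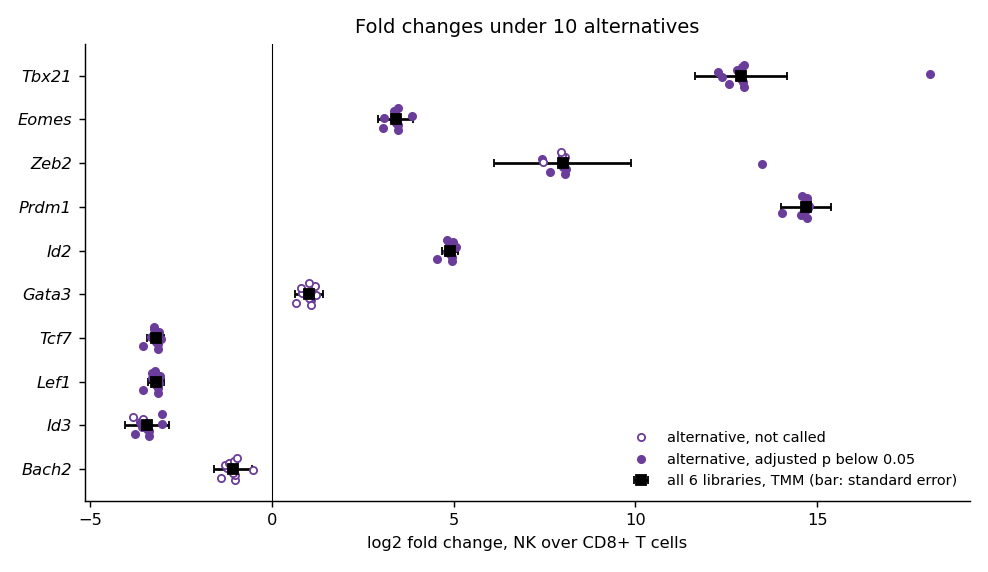
Log2 fold change, NK cells relative to CD8+ T cells, for each factor with all 6 libraries and TMM factors (square, bar for the standard error) and under the 10 alternatives (circles, filled where the adjusted p was below 0.05). No value crosses 0, and the isolated circles of Tbx21 at 18.11 and Zeb2 at 13.48 are fits without the only CD8+ T cell library that had reads of the gene.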

How the data were processed

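RNA of sorted splenic cells was amplified by Smart-seq2, a method that does not keep strand, and sequenced as short single-end reads. Per the labels and the study's methods, the authors used Trimmomatic 0.32 for trimming and STAR 2.7.1 for alignment to mm10, and counted uniquely aligned reads in exons with summarizeOverlaps in R 3.2.3. The deposited values are raw counts per gene, not normalised, and reads aligning to several places were left out. Of 104 columns of values 6 served here and the remaining 98 were left unused. They include 3 columns of WT homeostatic CD8+ T cells, whose names do not tell which belong to the 2 such samples, so the comparison with WT was not run. The numbers of the Tyk2-/- columns do not match those of the samples, and libraries were therefore used as unnumbered replicates of their group.

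Counts were analysed with edgeR 4.0.16 in R 4.3.3 (TMM factors, a minimum mean of 10 normalised counts per gene, robust quasi-likelihood test, Benjamini-Hochberg adjustment over 14062 genes, threshold 0.05). Up to 3 counts per library were treated as not detectable. This floor covers counting error only, since PCR-amplified reads are not independent molecules. Folds given as at least a value rest on it and leave out the spread between libraries. Levels per kilobase used the union of exons in GENCODE M21 basic (GRCm38), in which 54079 of the 54232 gene IDs had a symbol. Of the 10 factors, 5 share exon bases with a gene on the opposite strand. No pair of libraries agreed within sampling noise (chi-square per degree of freedom 97.2 to 377.3). The labels do not say whether pools came from separate litters, and p-values measure the spread between these libraries. The fitting scripts were tested on simulated data. The pass mark was recovery of large changes by edgeR at a spread far below that of these libraries, so passing it says little about power here.

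Alternatives were RLE factors, library totals only, DESeq2 1.42.0, no filter, each library left out in turn, and the longest transcript as gene length. Named genes were the 10 factors, Tyk2, cell type markers, of each list the called genes (at most 4 in each direction by fold change) and those at 3 counts or fewer in all libraries of a cell type, and the gene nearest in profile. Genes named outside this rule (the E proteins, Zeb1, Tle1, Tle3, Gzmb, Ccl5, Il2rb, Prf1, Cd27, Gm43352) were chosen after their values were seen. One marker gene of the B cell list is not reported here and was left out of its sums. The 10 factors and all lists were chosen with earlier results of these data known. Python 3.11.15 with pandas 2.3.3, numpy 2.4.6 and matplotlib 3.10.9 was used for the other steps.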

Additional observations from a re-analysis of the deposited data

How the results depend on the processing

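DESeq2 called 3729 genes (2132 higher and 1597 lower in NK cells) where edgeR called 1600 (877 and 723). Among the other lymphocyte factors it called 10 (6 higher in NK cells), among the partners 3 (1 and 2) and among the resting and memory genes 2 as higher in NK cells. With library totals only, 1112 genes were called higher in CD8+ T cells, 1 partner was called (1 higher in CD8+ T cells), the share of calls higher in NK cells went from 54.8% to 40.3%, and the median log2 fold change of all genes went from 0.10 to -0.27. The log2 fold change of each factor went down with it, for Prdm1 from 14.70 to 14.56 and for the others by more. Both Prdm1 values are numbers set by the fit, since the gene had no read in CD8+ T cells. Leaving out each library in turn gave 476 to 1946 calls (236 to 1205 higher and 240 to 741 lower in NK cells), with 482, 485 and 476 calls without NK cell library 1, 2 and 3. It gave 6 to 8 calls among the 10 factors (4 to 5 and 2 to 3), 0 to 5 among the other lymphocyte factors (0 to 4 and 0 to 2), 0 to 1 among the partners (0 to 1 higher in NK cells), 4 to 7 among the resting and memory genes (3 to 6 higher in CD8+ T cells) and 5 to 9 among the effector genes. For all genes the calls were 1669, 1946 and 1808 without CD8+ T cell library 1, 2 and 3. They thus fell only where an NK cell library was left out. The cause of these differences was not tested. With the longest transcript as length, both orders of levels stayed the same and 3 of the 20 levels moved by more than 1 SD, namely Id2 in both cell types (1008 in CD8+ T cells, 30050 in NK cells) and Zeb2 in NK cells (150). The sample titles of NK cells and CD8+ T cells carry no number in common, so there was no pairing of these libraries to use. Cell type thus coincides with the set of sample numbers and with the range of total counts, and cannot be told apart from them. The labels do not say what the numbers stand for. A pairing with WT was not possible, because the values used carry no sample numbers and the WT libraries were not used. Levels of Tbx21, Zeb2 and Prdm1 in CD8+ T cells of 3 reads or fewer in a library were taken as not detectable.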
